A study of Schizosaccharomyces pombe with 12 samples.

Results

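The genes for the 6 subunits of the MCM helicase (*mcm2*, *mcm3*, *mcm4*, *mcm5*, *mcm6* and *mcm7*), for the licensing factors *cdt1* and *cdc18*, and for the G1/S-induced proteins *cdc22* and *cig2* were followed in fission yeast with and without serine 2 in the C-terminal domain (CTD) of RNA polymerase II, a tail of repeated heptads that is phosphorylated during transcription. They were taken by gene symbol, from the annotation of the array or the gene list that accompanies the study, with older symbols such as *nda1* for *mcm2*, *cdc21* for *mcm4*, *nda4* for *mcm5* and *mis5* for *mcm6* updated. All 10 genes were found, each as 1 probe set of the 4875 *S. pombe* probe sets measured. No filter on low signal was applied, so all 10 entered every test.

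Before S phase, Cdc18 (the fission yeast Cdc6) and Cdt1 bind to the origin recognition complex and load the ring of MCM subunits onto DNA, which licenses the origin. The ring later becomes the core of the replicative helicase. In fission yeast the transcription factor MBF, made of Cdc10 with Res1 and Res2, switches on *cdc18*, *cdt1*, *cdc22* (the large subunit of ribonucleotide reductase) and *cig2* (the B-type cyclin of G1/S) as cells pass from mitosis into S phase.

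Both strains carry a shortened *rpb1*, the gene of the subunit that bears the CTD, with 12 heptad repeats, fewer than the native gene has. In *rpb1-12XS2ACTD* the serine 2 of the repeats is replaced with alanine, and in *rpb1-12XCTD* the repeats are wild type, so the control strain is not a strain with a full-length CTD. Cultures in mid-log phase in rich YES medium received 0.5 µM LatA (latrunculin A, which blocks the assembly of actin filaments) or the solvent DMSO for 3 h. The 4 groups, *rpb1-12XS2ACTD* with LatA, *rpb1-12XS2ACTD* with DMSO, *rpb1-12XCTD* with LatA and *rpb1-12XCTD* with DMSO, have 3 biological replicates each, on 12 Affymetrix arrays. The probe set of *rpb1* was not used to check the genotypes, since both strains carry an altered gene.

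A deposited value is a log2 intensity relative to the median of that probe set over the 12 arrays, so it compares arrays for a gene and says nothing of its level against another gene. By the median over all genes, replicates lay closest with LatA. The median SD over all genes was 0.078 in *rpb1-12XS2ACTD* with LatA, 0.097 in the same strain with DMSO, 0.068 in *rpb1-12XCTD* with LatA and 0.20 in that strain with DMSO. For the 10 genes the same medians were 0.11, 0.16, 0.15 and 0.29. In *rpb1-12XCTD*, however, *cdt1*, *cdc18*, *cdc22* and *cig2* had larger SDs with LatA (0.56, 0.42, 0.57 and 0.36) than with DMSO (0.49, 0.39, 0.38 and 0.28). The MCM subunits had smaller SDs with LatA there. The DMSO arrays numbered 1 had correlations of 0.30 to 0.54 to their own replicates, and calls of the 10 genes that rest on them are given without them too. DMSO replicate 1 of *rpb1-12XS2ACTD* correlated at 0.45 and 0.30 with replicates 2 and 3 of its group. With DMSO replicates 2 and 3 of *rpb1-12XCTD* it correlated more closely, at 0.75 and 0.71, and the reason was not tested. Replicates 2 and 3 correlated at 0.85 in *rpb1-12XS2ACTD* and 0.68 in *rpb1-12XCTD* with DMSO. In *rpb1-12XCTD*, DMSO replicate 3 had a still lower array weight in limma (0.17, against 0.20 for replicate 1). limma was fitted to all 12 arrays at once, and a gene was called where its p, adjusted by Benjamini-Hochberg for 4875 tests, lay under 0.05 and its fold change exceeded 1.5. A gene-specific test after the study's methods, run here with equal variances and held to those limits too, is named the methods' test below.

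With LatA, the transcripts of the G1/S genes and of part of the helicase fell in *rpb1-12XS2ACTD*. A total of 6 genes were called lower than with DMSO, *cdt1*, *cdc22*, *cig2*, *cdc18*, *mcm7* and *mcm6*, by 2.34-fold, 2.10-fold, 2.01-fold, 1.84-fold, 1.72-fold and 1.69-fold. They stand, as 6 of 10, against 5.37% of all genes called lower in this comparison, and the median log2 change was −0.77 for the 10 genes and −0.01 for all genes. In *rpb1-12XCTD* only the licensing factors and *cdc22* were called lower with LatA, 3 of 10 against 2.58% of all genes, and the medians were −0.27 for the 10 genes and 0.10 for all. The values of each gene on each array are plotted first.

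**Figure D1:**
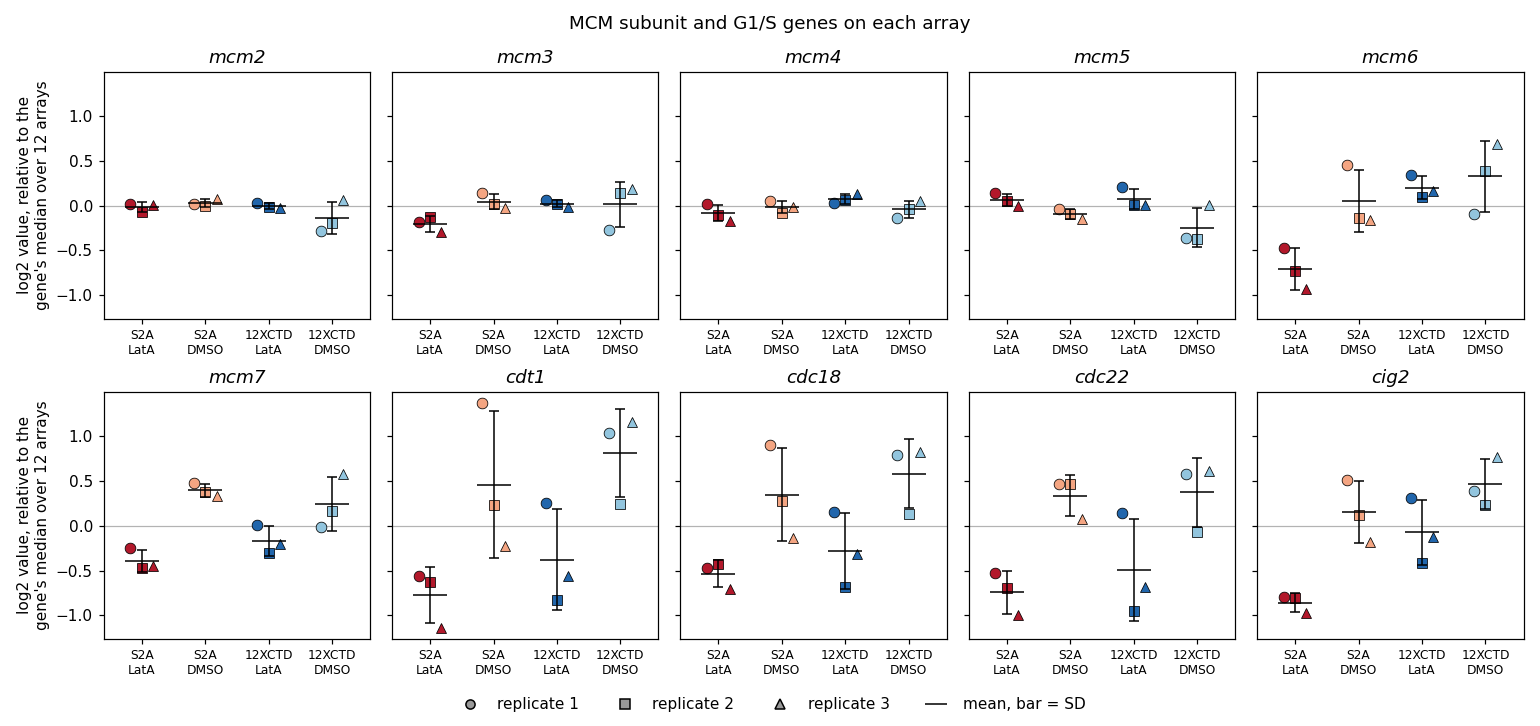
Deposited log2 value of each of the 10 genes (vertical axis, relative to the median of the gene over 12 arrays) on the 3 arrays of each group (S2A, rpb1-12XS2ACTD; 12XCTD, rpb1-12XCTD), with the mean (line) and SD (bar). Values of mcm2 to mcm5 stay between −0.38 and 0.21, whereas those of cdt1 run from −1.13 to 1.36.

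Most subunits of the helicase moved little. Over the 12 arrays *mcm2* ran from −0.28 to 0.07, *mcm3* from −0.30 to 0.18, *mcm4* from −0.17 to 0.13 and *mcm5* from −0.38 to 0.21. The lowest value of *mcm2* and that of *mcm5* were on DMSO arrays of *rpb1-12XCTD*. None of these 4 subunits was called with LatA in either strain. In *rpb1-12XS2ACTD* their log2 changes were −0.04 for *mcm2*, −0.25 for *mcm3*, −0.07 for *mcm4* and 0.15 for *mcm5*. In *rpb1-12XCTD* the changes were 0.14, 0.01, 0.11 and 0.32 in the same order, and that of *mcm5* passed the adjusted p (0.0348 by limma) but not the fold threshold. Its values in *rpb1-12XCTD* were 0.21, 0.011 and 0.0010 with LatA, against −0.37, −0.38 and 0.00099 with DMSO, so that the groups are separated by a margin far below their SD.

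*mcm6*, whose product is 1 of the 6 ring subunits, fell with LatA in *rpb1-12XS2ACTD*. Its values there were −0.47, −0.73 and −0.93 with LatA, against 0.45, −0.14 and −0.16 with DMSO. In *rpb1-12XCTD* they were 0.34, 0.10 and 0.17 with LatA, against −0.10, 0.38 and 0.69 with DMSO. The 3 arrays of *rpb1-12XS2ACTD* with LatA are thus the 3 lowest of the 12, and the LatA and DMSO values of *rpb1-12XCTD* overlap. The log2 change with LatA was −0.76 ± 0.21 (SE, adjusted p = 0.0180 by limma) in *rpb1-12XS2ACTD* and −0.12 ± 0.21 (adjusted p = 0.681) in *rpb1-12XCTD*. Without DMSO replicate 1 of *rpb1-12XS2ACTD*, which was the high value, the change was −0.56 (adjusted p = 0.0639) and *mcm6* was no longer called. With the DMSO arrays numbered 1 of both strains left out, the change of −0.56 passed the adjusted p (0.0108 by limma) but not the fold threshold.

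*mcm7*, another ring subunit, had values of −0.25, −0.47 and −0.45 in *rpb1-12XS2ACTD* with LatA, against 0.48, 0.37 and 0.33 with DMSO. Here the groups lie far apart and the DMSO replicate 1 does not stand out. In *rpb1-12XCTD* the values were 0.01, −0.31 and −0.21 with LatA, against −0.01, 0.16 and 0.58 with DMSO, and the first replicates overlap. The log2 change was −0.79 ± 0.14 (SE, adjusted p = 0.0022 by limma) in *rpb1-12XS2ACTD* and −0.41 ± 0.14 (adjusted p = 0.0403) in *rpb1-12XCTD*, the second of these under the fold threshold. In the annotation *mcm7* lies next to *suc22*, the small subunit of ribonucleotide reductase, which changed by 0.05 and 0.21 in the same comparisons and was not called.

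*cdt1*, the loader of the ring, had the widest spread of the 10 genes. In *rpb1-12XS2ACTD* its values were −0.56, −0.62 and −1.13 with LatA, against 1.36, 0.23 and −0.23 with DMSO. In *rpb1-12XCTD* they were 0.25, −0.83 and −0.56 with LatA, against 1.03, 0.25 and 1.15 with DMSO. The groups are apart in the first strain and overlap in the second, where LatA replicate 1 is as high as DMSO replicate 2. The log2 changes were −1.23 ± 0.40 (SE, adjusted p = 0.0374 by limma) and −1.19 ± 0.40 (adjusted p = 0.0398). DMSO replicate 1 of each strain was then left out, in a separate fit for each. The changes were −0.77 (adjusted p = 0.125 by limma) and −1.08 (adjusted p = 0.0894), neither of them called. With both of these arrays left out of 1 fit, *cdt1* was called in *rpb1-12XCTD* and not in *rpb1-12XS2ACTD* (adjusted p = 0.103).

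*cdc18*, the partner of Cdt1 in loading, followed the same course over the arrays at a smaller amplitude. Its values in *rpb1-12XS2ACTD* were −0.47, −0.43 and −0.71 with LatA, against 0.90, 0.28 and −0.13 with DMSO. Those in *rpb1-12XCTD* were 0.15, −0.69 and −0.31 with LatA, against 0.78, 0.13 and 0.81 with DMSO. Again LatA replicate 1 of *rpb1-12XCTD* lies within the range of the DMSO arrays. The changes were −0.88 ± 0.28 (SE, adjusted p = 0.0307 by limma) in *rpb1-12XS2ACTD* and −0.86 ± 0.28 (adjusted p = 0.0331) in *rpb1-12XCTD*. With DMSO replicate 1 of each strain left out in its own fit, they were −0.61 (adjusted p = 0.109 by limma) and −0.76 (adjusted p = 0.0809). With both of these arrays left out of 1 fit, *cdc18* was called in *rpb1-12XCTD* and not in *rpb1-12XS2ACTD* (adjusted p = 0.0841).

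*cdc22*, which supplies deoxyribonucleotides as the large subunit of ribonucleotide reductase, had values of −0.53, −0.69 and −0.999 in *rpb1-12XS2ACTD* with LatA, against 0.47, 0.46 and 0.07 with DMSO. In *rpb1-12XCTD* the values were 0.14, −0.95 and −0.69 with LatA, against 0.57, −0.07 and 0.61 with DMSO. The first pair of groups is apart and the second overlaps. The changes were −1.07 ± 0.27 (SE, adjusted p = 0.0115 by limma) and −0.87 ± 0.27 (adjusted p = 0.0275). Without DMSO replicate 1 of *rpb1-12XCTD* the second was −0.77 (adjusted p = 0.0692).

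*cig2*, the G1/S cyclin, was the only gene of the MBF-driven 4 that was called lower in *rpb1-12XS2ACTD* and not in *rpb1-12XCTD*. There it had −0.79, −0.81 and −0.98 with LatA, against 0.51, 0.12 and −0.18 with DMSO. In *rpb1-12XCTD* it had 0.31, −0.41 and −0.12 with LatA, against 0.39, 0.23 and 0.77 with DMSO. The LatA arrays of *rpb1-12XS2ACTD* are the lowest of the 12 and differ little among themselves (mean −0.86 ± 0.10, SD, n = 3). The changes were −1.01 ± 0.21 (SE, adjusted p = 0.0046 by limma) in *rpb1-12XS2ACTD* and −0.54 ± 0.21 (adjusted p = 0.0643) in *rpb1-12XCTD*. When each array was first centred on its median the second change was −0.63 (adjusted p = 0.0246) and was called.

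**Figure D2:**
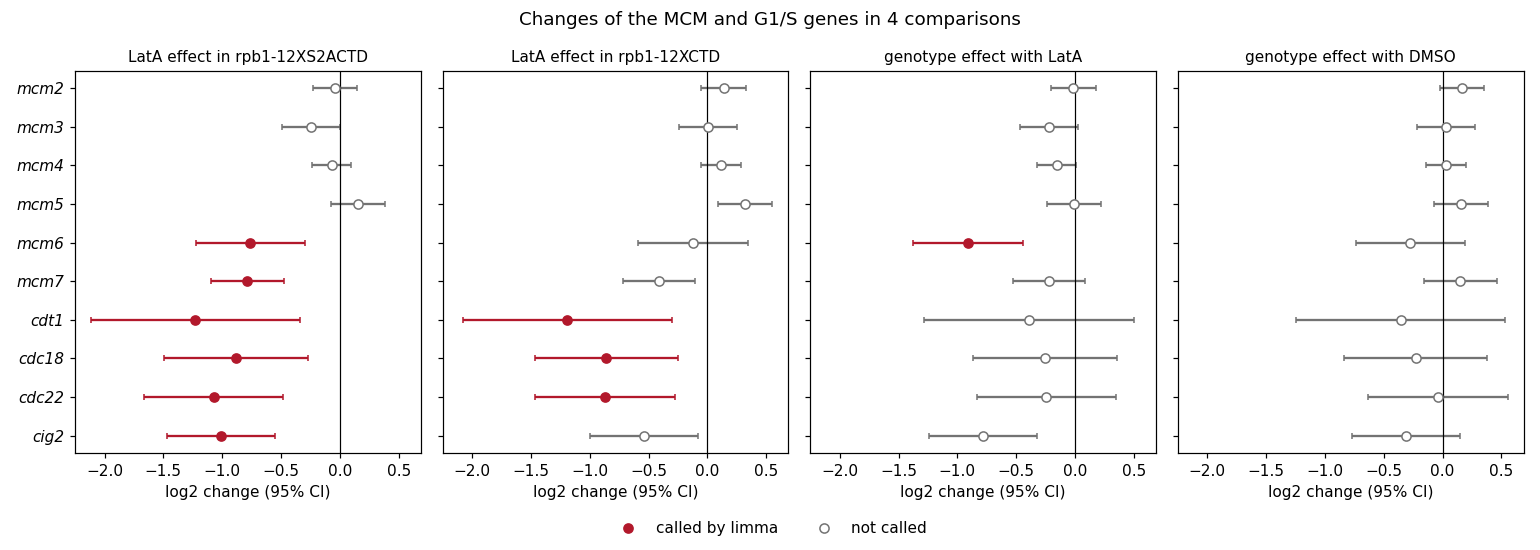
Log2 change of each gene (horizontal axis, points, with 95% confidence intervals from limma) in 4 comparisons, LatA minus DMSO in each strain and rpb1-12XS2ACTD minus rpb1-12XCTD in each treatment. Filled points were called, which are 6, 3, 1 and 0 genes from the left.

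The groups with and without LatA did not overlap for 7 genes that were lower and 1 that was higher (*mcm5*) in *rpb1-12XS2ACTD*, where 29.1% of all genes were lower and 27.7% higher without overlap. In *rpb1-12XCTD* none of the 10 was lower without overlap, against 10.6% of all genes, and only *mcm5* was higher, against 32.3%. The methods' test called *mcm7*, *cdc22* and *cig2* in *rpb1-12XS2ACTD*, 3 of 10 where it called 10% of all genes in either direction. In *rpb1-12XCTD* it called none of the 10 and 0.308% of all genes, and 0 of the 10 had an unadjusted p under 0.05 in it, where 6 had by limma.

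Single arrays decide several of these calls. In *rpb1-12XS2ACTD* the count was 3, with *mcm7*, *cdc22* and *cig2* called, when DMSO replicate 1, LatA replicate 2 or LatA replicate 3 was left out, and also when the DMSO arrays numbered 1 of both strains were left out. Without DMSO replicate 2 or LatA replicate 1 it was 4. In *rpb1-12XCTD* none of the 10 was called without DMSO replicate 1, without DMSO replicate 3, without LatA replicate 2 or without LatA replicate 3, and 4 were called without LatA replicate 1, when *cig2* joined the other 3. With the DMSO arrays numbered 1 of both strains left out, *cdt1* and *cdc18* were called there. The call of *cdt1* in this strain was also lost without DMSO replicate 2, LatA replicate 1 or LatA replicate 2 of the other strain, which enter through the shared spread (adjusted p of 0.0509 to 0.0538 by limma).

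Among the 10 genes, *mcm6* stood out between the strains under LatA. It was lower in *rpb1-12XS2ACTD* than in *rpb1-12XCTD* by 1.88-fold, a log2 difference of −0.91 ± 0.21 (SE, adjusted p = 0.0345 by limma), and the means were −0.71 ± 0.23 and 0.20 ± 0.13 (SD, n = 3 each). It was the only gene of the 10 called in this comparison, in which 1.5% of all genes were called lower, and it ranked 37 from the lowest of the 4875 differences. The methods' test called it as well (adjusted p = 0.0415), with 3.12% of all genes. *cig2* differed by −0.78 ± 0.21 and missed the threshold (adjusted p = 0.0520 by limma), although its groups did not overlap.

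The remaining 8 genes differed by less between strains under LatA. *cdt1*, *cdc18* and *cdc22* differed by −0.39, −0.25 and −0.24 (adjusted p of 0.617 to 0.649 by limma), with 95% confidence intervals that reach from −1.28 to 0.50 for *cdt1*. Without LatA replicate 1 of *rpb1-12XCTD* they were −0.08, −0.04 and 0.08. The other subunits of the ring differed by −0.01 (*mcm2*), −0.22 (*mcm3*), −0.16 (*mcm4*), −0.01 (*mcm5*) and −0.22 (*mcm7*). With all arrays the 10 differences were below 0, as were 61.9% of those of all genes, and *mcm2* and *mcm5* turned above 0 with median centring or quantile normalization. *mcm3*, *mcm4*, *mcm6* and *cig2* were lower without overlap, 4 of 10 against 32.1% of all genes.

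The call of *mcm6* between strains was lost when any of the 6 LatA arrays was left out. Its adjusted p then lay between 0.0559 and 0.140 by limma, while the difference stayed between −1.03 and −0.80. Calls over all genes also dropped in these fits, from 141 to between 35 and 68, so the loss is not particular to *mcm6*. Over all genes, LatA arrays with the same replicate number deviated together (r of 0.20 to 0.34), but over the 10 genes the correlations of the 3 pairs were 0.50, −0.69 and 0.71. With these numbers as a block and the LatA groups alone, *mcm6* had an SE of 0.074 (adjusted p = 0.0025) and *cig2* was called too (adjusted p = 0.0128). With the block over all 12 arrays neither was called, and the adjusted p of *mcm6* was 0.0662. *cig2* was also called without DMSO replicate 1 or DMSO replicate 3 of *rpb1-12XCTD* or DMSO replicate 1 of *rpb1-12XS2ACTD* (adjusted p of 0.0270 to 0.0412).

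With DMSO no difference between the strains passed the test. None of the 10 genes was called by limma, which called 0.862% of all genes in either direction, and 0 of the 10 had an unadjusted p under 0.05. The methods' test called 0% of all genes. The differences between *rpb1-12XS2ACTD* and *rpb1-12XCTD* ran from −0.36 (*cdt1*) to 0.17 (*mcm2*). Of the 10 values 5 were below 0, as were 29.6% of those of all genes, and *mcm3* and *mcm4* joined them with median centring or quantile normalization. The groups overlapped for all 10 genes, where 9.54% of all genes did not overlap. The interval of *cdt1* ran from −1.25 to 0.53, which includes a difference as large as the LatA effect. When the DMSO arrays numbered 1 of both strains were left out, *mcm6* was called lower in *rpb1-12XS2ACTD*, with a log2 difference of −0.68 (adjusted p = 0.0207 by limma), in a fit that called 4.53% of all genes.

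The interaction, for which the change with LatA in *rpb1-12XCTD* was subtracted from the change in *rpb1-12XS2ACTD*, asks whether LatA acted differently on these genes in the 2 strains. It was not called for any of the 10, and limma called 0.0205% of all genes, that is 1 gene. No unadjusted p of the 10 was under 0.05. The nearest was that of *mcm6*, −0.64 ± 0.30 (SE, unadjusted p = 0.0562, adjusted p = 0.457), followed in size by *cig2* with −0.47 and *mcm7* with −0.37. The interaction of *cdt1* was −0.04 and that of *cdc18* −0.02. All 10 values were below 0, as were 77.5% of those of all genes, whose median was −0.12, and *cdc18* turned above 0 with median centring or quantile normalization and *cdt1* with median centring. The calls of *mcm6*, *mcm7* and *cig2* in *rpb1-12XS2ACTD* and not in *rpb1-12XCTD* are therefore not shown to be a difference between the strains.

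The 4 MBF-driven genes moved together from array to array. Across the 12 arrays the 6 pairs among *cdt1*, *cdc18*, *cdc22* and *cig2* had Pearson correlations of 0.87 to 0.99, and after the group means were taken out the correlations were 0.82 to 0.98. These arrays share normalization, treatment and cultures, so the values are a description. *mcm7* correlated with the 4 at 0.81 to 0.87 and *mcm6* at 0.59 to 0.89, and *mcm2*, *mcm3*, *mcm4* and *mcm5* did so at −0.38 to 0.67. Within groups the correlations were 0.49 to 0.74 for *mcm7*, 0.35 to 0.70 for *mcm6* and 0.02 to 0.79 for the other 4 subunits, of which *mcm5* had 0.61 to 0.79 and was not below *mcm7*. Among the subunits of the ring the 15 pairs ran from −0.29 (*mcm5* with *mcm7*) to 0.85 (*mcm3* with *mcm6*), and from 0.48 to 0.94 within groups.

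The mean of *cdt1*, *cdc18*, *cdc22* and *cig2* was −0.59, −0.64 and −0.95 in *rpb1-12XS2ACTD* with LatA, against 0.81, 0.27 and −0.12 with DMSO. In *rpb1-12XCTD* it was 0.21, −0.72 and −0.42 with LatA, against 0.69, 0.14 and 0.84 with DMSO. LatA replicate 1 of *rpb1-12XCTD* is thus above 1 DMSO array of its own strain and 1 of the other. The mean of the 6 subunits of the ring spanned far less, −0.12, −0.24 and −0.31 in *rpb1-12XS2ACTD* with LatA and 0.18, 0.01 and 0.01 with DMSO. In *rpb1-12XCTD* it was 0.11, −0.02 and 0.01 with LatA, against −0.19, 0.01 and 0.26 with DMSO. In RNA of whole cultures, fewer cells at G1/S and less of a transcript in each cell cannot be told apart.

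**Figure D3:**
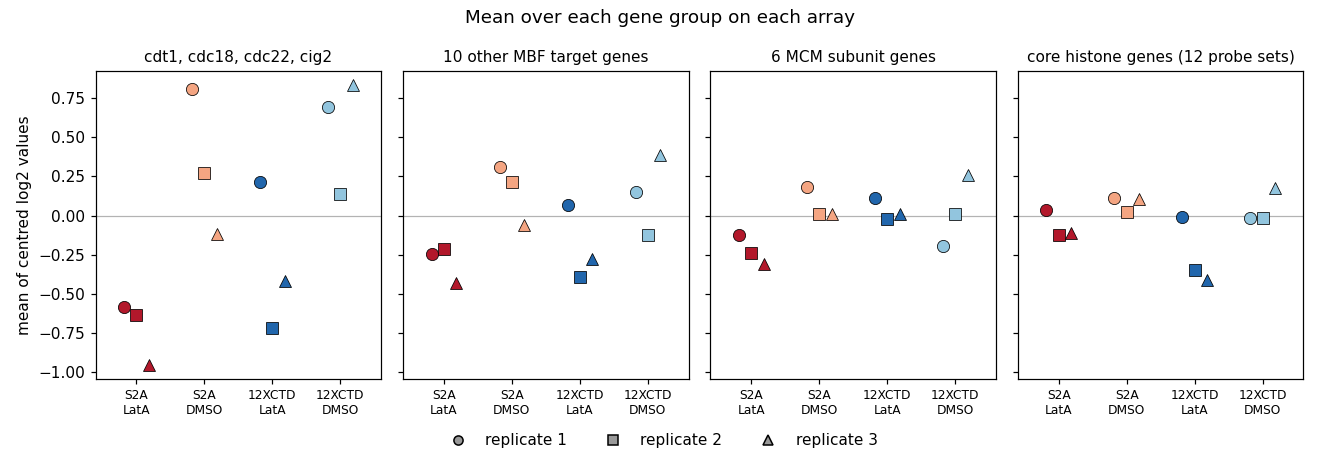
Mean of the centred log2 values over 4 gene groups (panels) on each array, by group (S2A, rpb1-12XS2ACTD; 12XCTD, rpb1-12XCTD) and replicate (symbols). The mean of cdt1, cdc18, cdc22 and cig2 runs from −0.95 to 0.84 and that of the 6 MCM subunit genes from −0.31 to 0.26.

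Genes expressed at another stage of the cell cycle differed between some of the same arrays. The mitotic genes of the *cdc15* cluster averaged 0.39 on DMSO replicate 1 of *rpb1-12XS2ACTD*, against −0.27 and −0.22 on the other 2 arrays. On LatA replicate 1 of *rpb1-12XCTD* they averaged 0.36, against 0.03 and 0.11 on the other 2 arrays of that group. Whether the stage of the cultures plays a part in the changes of the licensing genes was not tested.

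A list of 10 further MBF targets behaved unevenly. Of these, 4 were called lower with LatA in each strain, against 5.37% of all genes in *rpb1-12XS2ACTD* and 2.58% in *rpb1-12XCTD*. *cdt2*, the adaptor of the ubiquitin ligase that removes Cdt1, changed by −1.11 in *rpb1-12XS2ACTD* and −1.24 in *rpb1-12XCTD*. *mik1*, an inhibitory kinase of Cdc2, changed by −1.23 and −0.88, *tos4* by −0.99 and −0.92, and *dut1*, a dUTPase, by −0.99 and −0.91. The other 6, *rad21*, *eso1*, *ssb1*, *mrc1*, *ctp1* and *msh6*, were not called and ran from −0.56 to 0.44 and from −0.40 to 0.56. The medians over the 10 targets were −0.42 and −0.24, beside −0.01 and 0.10 over all genes. Leaving out single arrays gave 2 to 5 and 1 to 4 genes called lower in the strains in the same order. Without the DMSO arrays numbered 1 it was 3 and 4. In *rpb1-12XS2ACTD* the calls of *cdt2* and *mik1* held under all alternatives run, and those of *tos4* and *dut1* were lost without DMSO replicate 1 or LatA replicate 3. That of *dut1* was also lost with the methods' test, without DMSO replicate 2 or LatA replicate 1, and without both DMSO arrays numbered 1. In *rpb1-12XCTD* all 4 were lost with the methods' test, and all but *cdt2* without DMSO replicate 3, LatA replicate 2 or LatA replicate 3. All but *cdt2* were lost with array weights too. *tos4* and *dut1* were also lost with only the arrays compared, and *tos4* without DMSO replicate 1.

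Of 6 subunits and regulators of MBF itself, 1 was called higher and 1 lower with LatA in each strain. *res2*, a DNA-binding subunit, rose with LatA in both strains, by 0.88 in *rpb1-12XS2ACTD* (adjusted p = 0.0029 by limma) and 1.07 in *rpb1-12XCTD* (adjusted p = 0.000797), where 6.13% and 10.6% of all genes were called higher. Its values were 0.62, 0.59 and 0.22 in *rpb1-12XS2ACTD* with LatA, against −0.25, −0.56 and −0.42 with DMSO. *rep2*, a coactivator that works with Res2, fell by 0.64 on the log2 scale in *rpb1-12XS2ACTD* and 0.63 in *rpb1-12XCTD*. *cdc10*, *res1*, *nrm1* and *yox1* were not called, with changes of −0.02, −0.28, −0.37 and −0.52 in *rpb1-12XS2ACTD* and of 0.26, 0.01, −0.33 and −0.22 in *rpb1-12XCTD*.

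**Figure D4:**
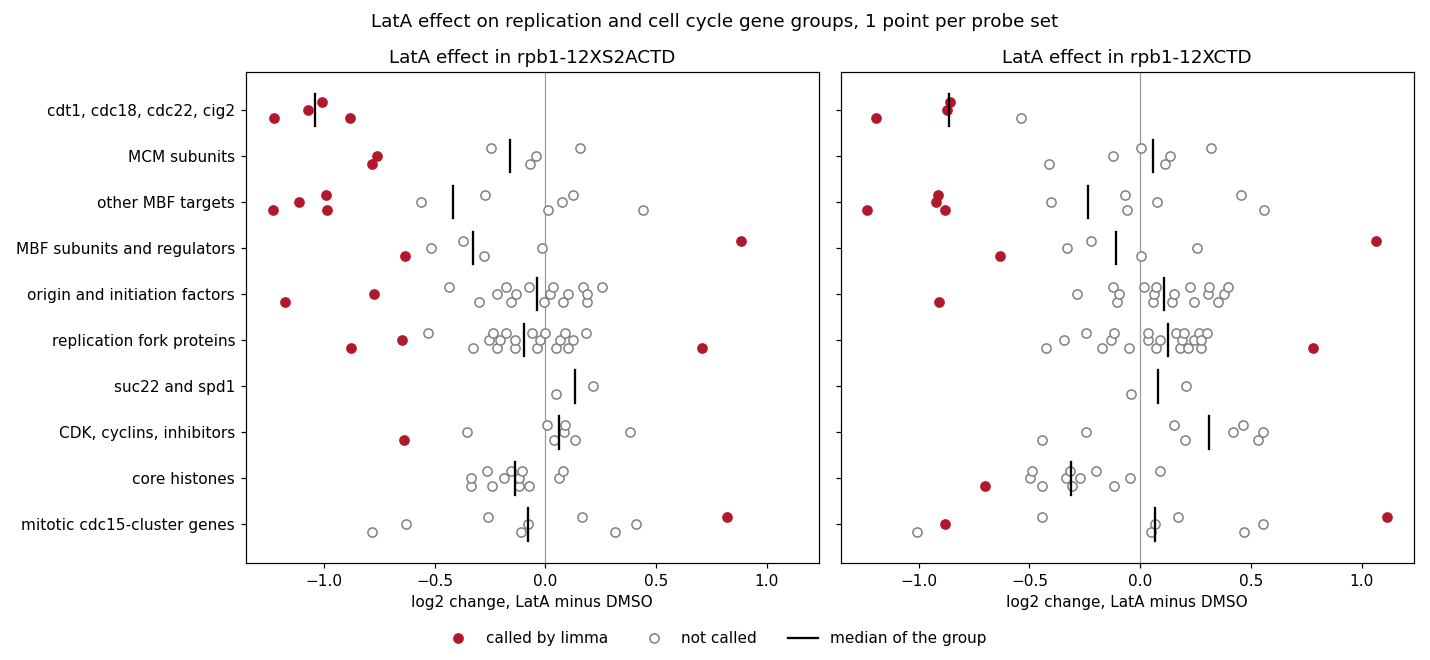
Log2 change with LatA (horizontal axis) in rpb1-12XS2ACTD (left) and rpb1-12XCTD (right) for each probe set of 10 gene groups, with the median of each group as a line. The medians of cdt1, cdc18, cdc22 and cig2 lie at −1.04 and −0.86, and those of the 22 replication fork genes at −0.10 and 0.13.

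Genes of the steps before and after licensing gave 1 or 2 calls in each direction at most, too few to set them apart from all genes. Of 18 genes of origin recognition and initiation, which include the 6 subunits of the origin recognition complex, 2 were called lower with LatA in *rpb1-12XS2ACTD*, where 5.37% of all genes were. These were *psf3* (a subunit of GINS, −1.18) and *cdc45* (−0.78), whose products join the MCM ring in the active helicase. Only *psf3* was called in *rpb1-12XCTD* (−0.91), where 2.58% of all genes were called lower. Of 22 genes of the replication fork, *ssb3* (the small subunit of RPA, −0.88) and *pol1* (the catalytic subunit of polymerase alpha, −0.65) were called lower and *cdc1* (a subunit of polymerase delta, 0.71) higher in *rpb1-12XS2ACTD*, and *cdc1* alone (0.78) in *rpb1-12XCTD*. Of all genes, 6.13% were called higher in *rpb1-12XS2ACTD* and 10.6% in *rpb1-12XCTD*. The medians of the 18 genes were −0.04 and 0.11, and those of the 22 genes −0.10 and 0.13, beside −0.01 and 0.10 over all genes. The call of *pol1* was lost without DMSO replicate 1 of *rpb1-12XS2ACTD*, with array weights, and without both DMSO arrays numbered 1. That of *psf3* was lost with the methods' test in both strains. In *rpb1-12XCTD* it was also lost without DMSO replicate 3, LatA replicate 2 or LatA replicate 3. Between the strains under LatA none of the 18 or the 22 genes was called, and 9 and 16 differences were below 0. The largest was that of *psf3* (−0.98, adjusted p = 0.0671 by limma), beyond that of *mcm6*. *pol1* (−0.54, adjusted p = 0.0259) passed the adjusted p but not the fold threshold.

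The lists that follow gave at most 1 call in each direction, too few to set them apart from the shares of all genes just given. *spd1*, the inhibitor of ribonucleotide reductase, and *suc22* were not called in either strain. Among 8 genes of Cdc2, cyclins and their inhibitors and degradation, the B-type cyclin *cig1* was called lower in *rpb1-12XS2ACTD* (−0.64) and changed by −0.44 in *rpb1-12XCTD*. Of 12 probe sets of core histones, some of which share sequence between copies, 0 were called in *rpb1-12XS2ACTD* and 1, for the histone H4 gene *hhf1*, was lower in *rpb1-12XCTD* (−0.70). Among the 9 mitotic genes of the *cdc15* cluster the myosin gene *myp2* was higher in both strains (0.82 and 1.12) and *slp1*, the activator of the anaphase-promoting complex, was lower in *rpb1-12XCTD* (−0.88). With the methods' test the calls of *myp2*, *slp1* and *hhf1* were lost. That of *myp2* in *rpb1-12XS2ACTD* was lost in 5 settings. That of *slp1* was lost in 7, among them array weights and DMSO replicate 1 of *rpb1-12XCTD* left out. The call of *cig1* was lost without DMSO replicate 3 of *rpb1-12XS2ACTD*, and that of *hhf1* also without LatA replicate 3 of *rpb1-12XCTD*. No gene of these lists was called between the strains with either treatment, or in the interaction.

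Over the 12 arrays, the genes most like the mean of *cdt1*, *cdc18*, *cdc22* and *cig2* were *agn1*, the glucanase that opens the septum (Pearson r of 0.99), *adg2* (0.98), *dut1* (0.98), *mik1* (0.97) and *tos4* (0.97). The mean of the MCM subunits was most like *rpb3*, a subunit of RNA polymerase II (0.98), the unnamed genes SPBC14F5.01 (0.97) and SPBC215.01 (0.97), *uvi31* (0.96) and *cbc2*, of the nuclear cap-binding complex (0.96). These genes were picked as the highest of all named genes over the same arrays, so the correlations only order them.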

How the data were processed

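Total RNA was made into labelled cRNA and hybridized to Affymetrix Yeast Genome arrays. The authors normalized them by RMA (version not given in the sources used here), which corrects background, equalizes arrays and summarizes probes, and deposited log2 values. Every probe set has a median of 0 over the 12 arrays, a centring that the sources do not describe, so levels between genes and signal over background are lost and no filter on low signal could be run. No genome build is named, and no sequences or coordinates are given.

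Names came from the annotation of the array (2863 probe sets) and systematic IDs in the study's gene list (1048), read for names only. 964 kept no single name and stayed in every test. Symbols, and the order of genes, follow RefSeq.

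limma 3.58.1 in R 4.3.3 (names and plots in Python 3.11.15) fitted 4 group means to 12 arrays, with 5 comparisons. The same comparisons were repeated with only the arrays compared, by the methods' test (equal variances are a choice made here), with the replicate number as a block, with limma's trend and robust options, with array weights, after median centring or quantile normalization of the centred values, with no fold threshold, without probe sets of several genes, and without each array in turn. A block within the LatA groups and removal of the DMSO arrays numbered 1 were added after seeing the data. The numbers recur in each group. Of 18 pairs of same-numbered arrays, 7 had deviations from group means that correlated above 0.1, over a range of −0.40 to 0.34. The 3 LatA pairs lay between 0.20 and 0.34 over all genes, which is a hint from the data and not from a label.

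The 10 genes and the lists were chosen with earlier results of these data known. Named genes are the 10, up to 4 called genes of each list and comparison, whole lists of 10 or fewer where values are given, and the 5 genes most like each mean. The result of 1 further list is not reported here. The procedure was tested on simulated data. Precision rests on 3 replicates per group, and limma gives all groups a shared spread.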

Additional observations from a re-analysis of the deposited data

How the results depend on the processing

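Counts of the 10 genes called moved with the processing in 4 of the 5 comparisons. For the strains under LatA, 1 gene was called as deposited and 0 with the replicate block over all arrays. It was 2, *mcm6* and *cig2*, with the LatA groups alone, array weights, median centring, quantile normalization, the block within the LatA groups, or both DMSO arrays numbered 1 left out, and 0 to 2 when single arrays were left out. For the strains under DMSO the count was 0 except for 1 (*mcm6*) without both DMSO arrays numbered 1. For LatA in *rpb1-12XS2ACTD* it was 6, and 3 with the methods' test or without both DMSO arrays numbered 1, and 3 to 6 without single arrays. *mcm7*, *cdc22* and *cig2* were called under all alternatives run. For LatA in *rpb1-12XCTD* it was 3, and 0 with the methods' test, 0 with array weights, 5 with no fold threshold (4 lower, and *mcm5* higher), and 0 to 4 without single arrays. The interaction stayed at 0 throughout. The replicate block over all arrays changed no other count, and the cause of these shifts was not tested.

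Of 1090 values of the 10 genes under alternatives, 49 lost a call, 15 gained it and 53 changed sign, none of these 53 called in either fit, the largest at 0.42. Among all genes, 141 were called between strains under LatA (35 to 265 under alternatives, and 273 with no fold threshold) and 42 under DMSO (0 to 221). With LatA 561 were called in *rpb1-12XS2ACTD* (489 to 609, and 1625 with no fold threshold), 642 in *rpb1-12XCTD* (15 to 784, and 1738), and 1 in the interaction (0 to 52). The split of higher and lower calls with LatA in *rpb1-12XCTD* was 516 and 126 as deposited, 369 and 187 after median centring, and 279 and 256 after quantile normalization. The median of all genes in this comparison was 0.10 as deposited and −0.02 after quantile normalization, and that of the interaction −0.12 and 0.01. The deposited values do not show which genes lay near background.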
